A study of Mus musculus with 12 samples.

Results

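Notch signalling in mouse mammary epithelial cells was described through 36 genes: 4 receptors, 5 canonical ligands, 2 atypical ligands, 3 fringe glycosyltransferases, 3 γ-secretase subunits, 5 nuclear factors, 7 endocytic and ubiquitin regulators and 7 transcriptional targets or feedback genes. Each gene was taken by its symbol from the single-locus entries of the count table, using the entry with the highest mean count where several carried it. All 36 were found among 20114 single-locus entries. Of these, 31 had enough counts to be tested, and Dll3, Dlk1, Dner, Mfng and Hes5 did not. For 10 members the entry joins the gene with another symbol, so reads of either may be counted.

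The study asked what overexpression of SmoM2 does in the mammary gland. SmoM2 is an activated form of Smoothened, the receptor-like protein through which Hedgehog ligands act. There were 3 groups of 4 libraries. Recombined cells had the genotype mT-mG/SmoM2;MMTV-Cre and were SmoM2 positive and green (EGFP). Unrecombined cells had the same genotype but were SmoM2 negative and red (tdTomato). Wild type control cells were mT-mG/SmoM2;+, without Cre, and red. So every group carried the mT-mG reporter and SmoM2 alleles. All cells were purified by FACS from adult females at 9 weeks; the strains behind the animals were 129X1/SvJ, C57BL/6 and Swiss Webster. The MMTV promoter drives Cre mainly in mammary and some other secretory epithelia, and only a share of cells recombines. SmoM2, colour and Cre activity change together between green and red cells, and no green cells without SmoM2 were analysed here, so these cannot be told apart. The labels do not say which animals gave which library, and p values measure the spread between these libraries.

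Notch receptors are membrane proteins that are cut after a ligand on a neighbouring cell binds them. γ-Secretase makes the last cut, and the freed intracellular part joins Rbpj and a Mastermind-like protein on DNA and turns on genes such as those of the Hes and Hey repressors. In the mouse mammary gland, ligands such as Dll1 and Jag1 are known from basal cells, while Notch activity is known to favour luminal fates.

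The promoters of the ligands whose RNA rose in recombined cells are shown here with a promoter of Rbpj, the DNA-binding partner of all 4 receptors. Sequences are the 250 bases before each annotated RefSeq start on GRCm38.p6, 5′ to 3′. Capitals mark the letters TGGGAA, the core of the Rbpj motif, or its reverse complement, and the palindrome CAGCTG, an E-box of the kind bHLH proteins bind.
Dll1, start 1, chr17:15375824-15376073, minus strand: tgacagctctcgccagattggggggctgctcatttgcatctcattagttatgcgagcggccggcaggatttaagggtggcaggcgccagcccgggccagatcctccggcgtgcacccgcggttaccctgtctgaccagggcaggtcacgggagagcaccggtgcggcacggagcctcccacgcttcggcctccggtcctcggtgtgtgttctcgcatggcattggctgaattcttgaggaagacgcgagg
Dll1, start 2, chr17:15376933-15377182, minus strand: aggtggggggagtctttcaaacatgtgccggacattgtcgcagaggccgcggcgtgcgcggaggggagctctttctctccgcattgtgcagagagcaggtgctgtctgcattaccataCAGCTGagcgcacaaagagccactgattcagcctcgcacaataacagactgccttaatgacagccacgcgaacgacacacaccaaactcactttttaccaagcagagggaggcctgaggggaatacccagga
Jag1, chr2:137116521-137116770, minus strand: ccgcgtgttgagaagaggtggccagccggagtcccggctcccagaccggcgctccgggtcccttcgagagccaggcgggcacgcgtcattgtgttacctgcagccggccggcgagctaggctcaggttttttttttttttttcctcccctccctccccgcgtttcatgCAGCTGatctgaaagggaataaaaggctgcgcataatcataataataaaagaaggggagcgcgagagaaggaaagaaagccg
Jag2, chr12:112929496-112929745, minus strand: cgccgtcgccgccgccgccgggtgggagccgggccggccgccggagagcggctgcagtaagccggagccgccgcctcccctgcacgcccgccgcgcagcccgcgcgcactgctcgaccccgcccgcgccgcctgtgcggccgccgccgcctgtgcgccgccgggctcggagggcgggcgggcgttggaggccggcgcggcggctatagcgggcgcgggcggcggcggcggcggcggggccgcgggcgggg
Rbpj, start 1, chr5:53590096-53590345, plus strand: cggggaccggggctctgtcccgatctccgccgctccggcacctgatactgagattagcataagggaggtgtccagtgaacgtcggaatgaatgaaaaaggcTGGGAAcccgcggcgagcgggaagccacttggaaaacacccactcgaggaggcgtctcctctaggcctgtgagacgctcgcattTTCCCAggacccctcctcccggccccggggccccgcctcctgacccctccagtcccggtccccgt
None of the 4 ligand windows held TGGGAA on either strand, and the Rbpj window held 2 matches. The second Dll1 window and the Jag1 window each held 1 CAGCTG. The Jag2 window was 87.2% G and C, against 57.2% for Jag1. Of 36 windows found for 29 members, 10 (27.8%) held TGGGAA, against 21.6% of 32851 RefSeq windows of the same length, and 7 (19.4%) held CAGCTG, against 13%. The letters TGGGTGGTC, which Gli factors bind, occurred in 0 of the 36 member windows and in 0.225% of all windows, counting both strands. At so low a share, 36 windows are too few to tell whether members lack this motif. The 2 motifs marked in capitals share no letters at any match printed here. Hes1, Hey1, Heyl, Mfng, Itch, Dtx3 and Dtx4 have no window in the table.

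Total counts per library lay between 19581993 and 34779433. Recombined libraries 3 and 4 stood apart: on the first principal component (31.4% of the variance) they lay at -140 and -102, against -30.2 to 48.8 for the others, and they had counts in 14256 and 14601 loci, against 15289 to 16814. Ptch1, a direct Hedgehog target that reports Smoothened activity, had 133 to 809 CPM (counts scaled to a common library size, with TMM factors) in recombined libraries, 24.8 to 61.3 in unrecombined and 34.5 to 38.1 in wild type libraries. Marker genes differed between the groups too. Of 8 basal and myoepithelial markers, recombined cells had 7 above their wild type level and all 8 above their unrecombined level, by the test, and none below. Their summed level was 1660 to 7390 CPM in recombined libraries, 361 to 996 in unrecombined and 724 to 920 in wild type libraries. Of 6 luminal hormone-sensing markers, 5 fell against wild type and 3 against unrecombined cells, with sums of 588 to 1740, 2540 to 4230 and 2990 to 5770 CPM in recombined, unrecombined and wild type libraries. All 6 fibroblast markers fell in both comparisons, with sums of 203 to 561, 4920 to 7000 and 1340 to 3160 CPM in the same order of groups. The 7 endothelial markers summed to 31.2 to 87.4 CPM in recombined, 81.4 to 155 in unrecombined and 68 to 116 in wild type libraries, where 0 passed against wild type and 1 (Kdr) fell against unrecombined cells. The 3 luminal keratins and the 6 luminal progenitor markers gave no call in any comparison, with sums of 578 to 1360 and 577 to 1810 CPM in recombined, 1120 to 2130 and 1130 to 2870 in unrecombined, and 1210 to 2360 and 728 to 989 in wild type libraries. Of 5 pericyte markers, 2 rose and 1 fell against wild type cells, and 1 rose and 1 fell against unrecombined cells (sums 33.1 to 86, 54.2 to 70 and 19.9 to 49.4 CPM). Of 6 macrophage and dendritic markers found, 4 fell against wild type and 0 passed against unrecombined cells (sums 6.68 to 12.9, 12.7 to 31.3 and 29.8 to 108 CPM). No marker was at 0 in all 4 libraries of a group. The groups therefore differ in marker levels as well as in SmoM2, and the part this plays in the results below was not tested. In such bulk samples, fewer cells of a type and less RNA per cell cannot be told apart.

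**Figure D1:**
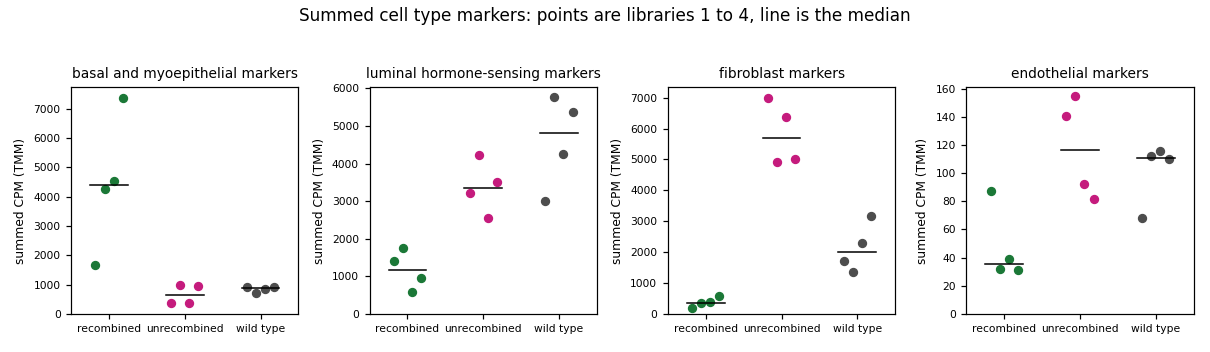
Summed CPM of the basal, luminal hormone-sensing, fibroblast and endothelial marker lists (vertical axes) in recombined, unrecombined and wild type libraries, with a point per library and a line at the median. Basal sums of 1660 to 7390 in recombined libraries lie above all others, and fibroblast sums of 203 to 561 lie below all others.

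Across the pathway, the ligands stood out by count. Set against wild type, recombined cells had 3 of 31 tested members higher (9.68%) and 2 lower (6.45%), where 4.17% of 14039 tested loci rose and 2.38% fell. The 3 that rose were the ligands Dll1, Jag1 and Jag2; the 2 that fell were the target Hes1 and the ubiquitin ligase gene Dtx4. In recombined against unrecombined cells, 5 members rose (16.1%), where 3.08% of all loci rose: the same 3 ligands with Rbpj and Spen. There 0 members fell by edgeR, DESeq2 or limma-voom, where 2.14% of all loci fell by edgeR, although Dtx4 and Hes6 had an unadjusted p below 0.05, as did 8.1% of all loci in that direction. The edgeR counts come from a fit that did not pair libraries by replicate number. With a replicate block and only the recombined and unrecombined groups, 4 members rose, all but Rbpj, and 0 fell. In that paired fit 569 loci rose and 415 fell. Without overlap between groups, 4 of the 31 tested members lay higher and 2 lower against wild type (6.33% and 5.91% of all tested loci), and 5 higher and 0 lower against unrecombined cells (5.57% and 5.71%). Of the members below the filter, Dner lay lower without overlap in both comparisons and Mfng against wild type. The shares above cover tested loci only. None was computed for loci below the filter, so how common such a gap is among them is not known. The median log2 fold change over tested members was 0.14 against wild type and 0.03 against unrecombined cells, beside -0.02 and -0.01 over all loci. These comparisons share the recombined libraries and are given side by side, not as separate evidence. The plot of fold changes sets out all 31 tested members.

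**Figure D2:**
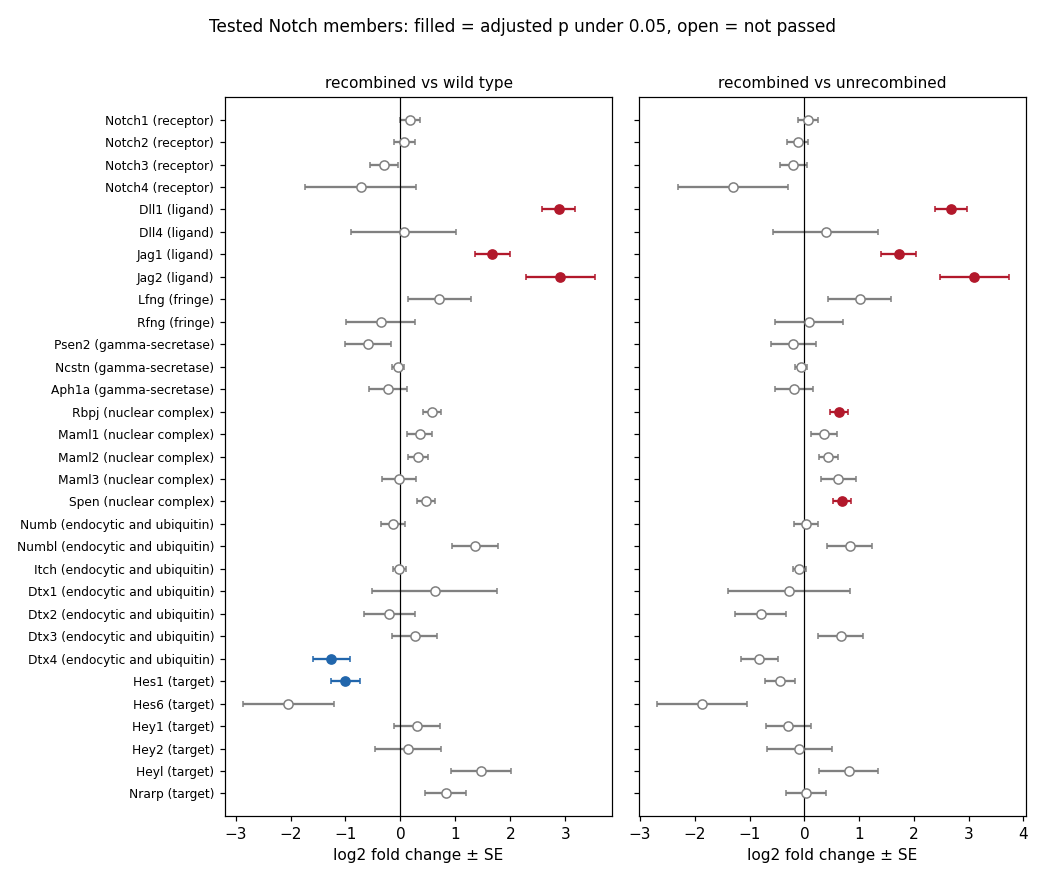
Log2 fold change with its standard error (horizontal axes) of the 31 tested members in recombined against wild type (left) and against unrecombined cells (right). Filled points passed an adjusted p of 0.05: Dll1, Jag1 and Jag2 lie to the right on each side, Dtx4 and Hes1 to the left against wild type, and Rbpj and Spen to the right against unrecombined cells.

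The ligands come first. Dll1, a Delta-like ligand, begins at mm9 chromosome 17, position 15504317. It had 53, 74.6, 84.6 and 62.2 CPM in recombined libraries 1 to 4, against 8.66, 17, 8.52 and 8.69 CPM in unrecombined and 8.62, 12.3, 10.3 and 6.13 CPM in wild type libraries. Every recombined library was above every red library, and the lowest recombined value was still far above the highest red value. The means were 68.6 ± 13.9, 10.7 ± 4.17 and 9.33 ± 2.6 CPM (SD, n = 4 each) in recombined, unrecombined and wild type libraries. Dll1 rose by a log2 fold change of 2.88 ± 0.298 (SE), 7.35-fold, against wild type (edgeR, adjusted p = 0.000127). It rose by 2.68 ± 0.295, 6.41-fold, against unrecombined cells (adjusted p = 9.52e-05). Its call held in all 22 alternative settings of each comparison, with log2 fold changes of 2.72 to 3.04 against wild type and 2.58 to 2.99 against unrecombined cells when single libraries were left out.

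Jag1, a Jagged ligand that binds several Notch receptors, begins at chromosome 2, position 136907193. It had 58, 150, 203 and 123 CPM in recombined libraries, against 35.5, 48.2, 29.1 and 48.8 CPM in unrecombined and 51.4, 29.5, 42.8 and 44.5 CPM in wild type libraries. The groups did not overlap, but recombined library 1 came close to the highest wild type library. Jag1 rose by 1.67 ± 0.317 on the log2 scale, 3.17-fold, against wild type (adjusted p = 0.00666), and by 1.72 ± 0.318, 3.3-fold, against unrecombined cells (adjusted p = 0.00504).

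Jag2, the second Jagged ligand, begins at chromosome 12, position 114146800. It had 3.05, 8.25, 9.42 and 15.5 CPM in recombined libraries, against 0.362, 1.77, 0.683 and 1.39 CPM in unrecombined and 1.84, 0.697, 0.698 and 1.54 CPM in wild type libraries. It was low in every red library and higher in every green library. The rise was 2.91 ± 0.623 on the log2 scale, 7.53-fold, against wild type (adjusted p = 0.0128), and 3.10 ± 0.629, 8.57-fold, against unrecombined cells (adjusted p = 0.00949). Without recombined libraries 3 and 4, neither Jagged gene passed: Jag1 had 1.30 (adjusted p = 0.0932) and 1.37 (0.075), and Jag2 had 2.23 (0.154) and 2.43 (0.121), against wild type and unrecombined cells. Dll1 passed without them, at 2.77 (adjusted p = 0.00224) and 2.58 (0.00138).

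The labels' library numbers fall into 2 series, and each series held the same order for these ligands. Series 23 (recombined 1 and 2, unrecombined 1 and 2, wild type 1 to 3) gave log2 fold changes against wild type of 2.62 for Dll1, 1.34 for Jag1 and 2.37 for Jag2. Series 24 (recombined 3 and 4, unrecombined 3 and 4, wild type 4) gave 3.60, 1.89 and 3.04, with a single wild type library. Against unrecombined cells series 23 gave 2.33, 1.33 and 2.43, and series 24 gave 3.10, 2.08 and 3.60. The basal marker sum was also lowest in recombined library 1 (1660 CPM), the library with the lowest Dll1, Jag1 and Jag2, while libraries 2, 3 and 4 had 4250, 4550 and 7390 CPM. Recombined library 4, with the highest sum, had the highest Jag2 (15.5 CPM). Dll1 and Jag1 did not follow that order: they were highest in library 3 (84.6 and 203 CPM), against 62.2 and 123 CPM in library 4. The part of the basal marker sum in the ligand levels was not tested.

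The other canonical ligands were near the limit of detection. Dll4, a Delta-like ligand best known from blood vessel endothelium and here counted with Gm14207, had 0.986, 0.0733, 0.808 and 0.0824 CPM in recombined, 0.579, 0.565, 0.0719 and 0.272 CPM in unrecombined and 0.307, 0.581, 0.524 and 0.466 CPM in wild type libraries. The groups overlapped, and the log2 differences of 0.06 ± 0.956 and 0.39 ± 0.96 had adjusted p of 0.985 and 0.888. Dll3, a Delta-like protein that inhibits signalling within its own cell, had 23 counts in recombined library 2 and 0 in the other recombined libraries, with totals of 3 counts in unrecombined and 14 in wild type libraries. Among the atypical ligands, Dlk1 had 0 counts in all recombined libraries, against totals of 11 in unrecombined and 10 in wild type libraries. Dner, a Delta/Notch-like receptor known from mouse neurons, also had 0 counts in all recombined libraries, against 15, 2, 6 and 4 counts in unrecombined and 5, 23, 2 and 28 counts in wild type libraries. Set against a floor of 3 counts over the recombined group (0.029 CPM), Dner was at least 18.9-fold lower than in wild type and at least 8.37-fold lower than in unrecombined cells. These figures hold the counting error of the recombined group only and leave out the spread between red libraries. Dner ran from 0.0873 to 1 CPM in wild type and from 0.0754 to 0.543 CPM in unrecombined libraries, so single libraries lay much closer to that floor. With no filter the adjusted p of Dner in edgeR was 0.0349 against wild type and 0.0817 against unrecombined cells.

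**Figure D3:**
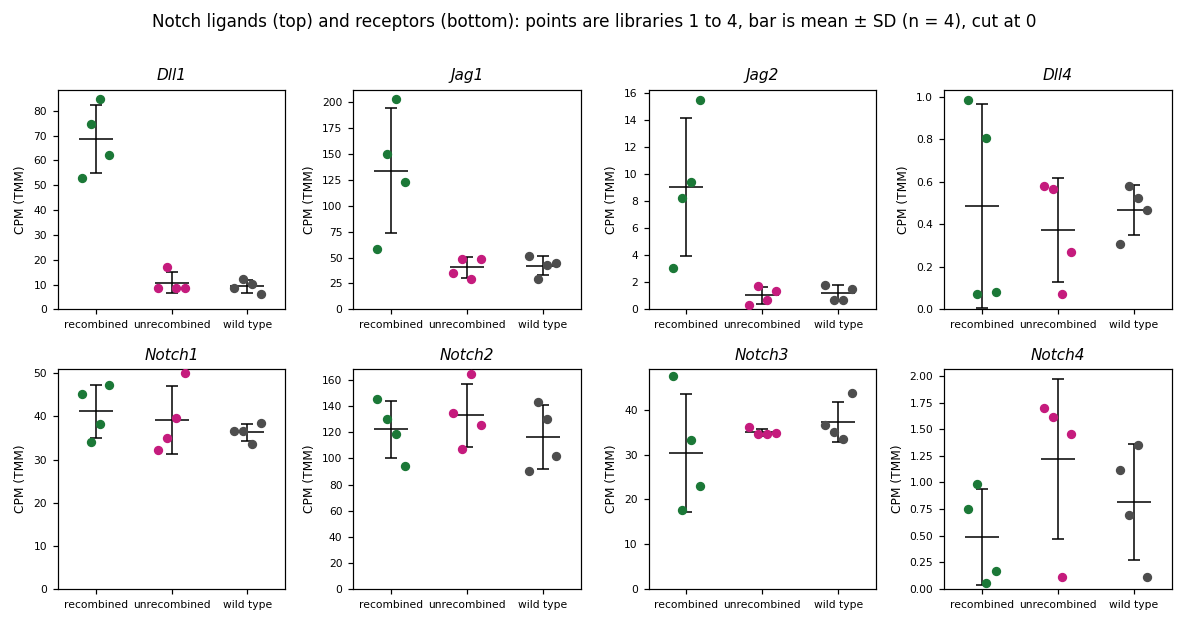
CPM (vertical axes) of 4 ligands and 4 receptors in recombined, unrecombined and wild type cells, with a point per library and the mean ± SD (n = 4 each). Dll1 at 53 to 84.6 CPM, Jag1 at 58 to 203 and Jag2 at 3.05 to 15.5 in recombined libraries lie above all red libraries, while every receptor overlaps between groups.

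The receptors gave no call in any comparison. Notch1, counted with AK075572, had 45.2, 34, 38.3 and 47.2 CPM in recombined, 32.2, 34.9, 39.7 and 50.1 CPM in unrecombined and 36.6, 36.6, 33.7 and 38.4 CPM in wild type libraries. Its log2 difference against wild type was 0.18, with a 95% interval of -0.20 to 0.57. Notch2 had 146, 130, 119 and 94.2 CPM in recombined, 135, 107, 165 and 126 CPM in unrecombined and 90.2, 143, 130 and 102 CPM in wild type libraries. Its difference against wild type was 0.07 (-0.33 to 0.48). Neither interval reaches the fold changes of Dll1, Jag1 or Jag2, but both leave room for smaller changes.

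Notch3, counted with BC048393, is known in the gland from luminal progenitors and, in vessels, from pericytes. It had 47.7, 17.7, 33.3 and 23.1 CPM in recombined, 36.2, 34.6, 34.6 and 34.8 CPM in unrecombined and 36.7, 35.2, 33.6 and 43.9 CPM in wild type libraries. The recombined libraries spread widely around the narrow unrecombined group, and the log2 difference against wild type was -0.30 (-0.84 to 0.25). Notch4, an endothelial receptor counted with IAP, had 0.747, 0.99, 0.0538 and 0.165 CPM in recombined, 1.7, 1.62, 0.108 and 1.46 CPM in unrecombined and 1.12, 0.697, 1.35 and 0.108 CPM in wild type libraries. It was low in all groups, and its interval against wild type, -2.88 to 1.44, is too wide to exclude a large change. The endothelial marker sums given above overlap between recombined and red libraries only through recombined library 1 (87.4 CPM). Recombined libraries 2, 3 and 4, at 32.2, 38.8 and 31.2 CPM, lay below every red library (68 CPM or more). The part of these sums in the levels of Notch4 and Dll4 was not tested. Against unrecombined cells the log2 differences of Notch1, Notch2, Notch3 and Notch4 were 0.07, -0.12, -0.20 and -1.30 (adjusted p 0.553 to 0.89).

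Levels per kilobase of merged exons put the genes on a common, approximate scale. Among receptors Notch2 was highest in each group, at 11.6, 12.7 and 11.1 CPM per kilobase (group means) in recombined, unrecombined and wild type cells. Notch1 (4.34, 4.13 and 3.83) and Notch3 (3.8, 4.37 and 4.66) followed; their libraries overlapped in recombined and unrecombined cells and did not overlap in wild type cells. Notch4 was at 0.0742, 0.185 and 0.124. Among ligands Jag1 (7.2 and 7.49) was above Dll1 (2.99 and 2.61) in unrecombined and wild type cells, with no overlap between libraries. In recombined cells Jag1 averaged 23.8 (10.3 to 36.2) and Dll1 19.2 (14.8 to 23.6), and their libraries overlapped. Jag2 averaged 1.77, 0.206 and 0.234, below Jag1 in every library range, and it overlapped with Dll4 (0.13, 0.0993 and 0.125) in unrecombined and wild type cells only.

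The fringe genes, whose enzymes add sugars to Notch and shift its preference between Delta and Jagged ligands, gave no call. Lfng had 1.19 to 6.41 CPM in recombined, 1.16 to 2.94 in unrecombined and 1.43 to 4.37 in wild type libraries, with a log2 difference of 0.71 ± 0.576 against wild type (adjusted p = 0.539). Rfng lay between 0.641 and 3.95 CPM over all libraries. Mfng was below the filter, with 4 counts in all recombined libraries together, against 32 in unrecombined and 65 in wild type libraries, and an adjusted p of 0.148 against wild type with no filter. The γ-secretase genes Psen2, the catalytic subunit, Ncstn, the substrate-binding subunit counted here with Copa, and Aph1a, a scaffold subunit counted with Car14, had log2 differences of -0.59, -0.04 and -0.23 against wild type and -0.20, -0.06 and -0.19 against unrecombined cells. All 3 had overlapping groups and adjusted p of 0.46 or more.

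Among the nuclear factors Rbpj and Spen were higher in green cells. Rbpj, counted with AK164362 from chromosome 5, position 53947017, had 55.6, 70.5, 76.7 and 77.3 CPM in recombined, 46.8, 39.8, 47 and 46.9 CPM in unrecombined and 45.3, 58.2, 45.7 and 39 CPM in wild type libraries. All recombined libraries were above all unrecombined ones, while wild type library 2 overlapped with recombined library 1. Rbpj rose by 0.63 ± 0.167 on the log2 scale against unrecombined cells (adjusted p = 0.0412), and had 0.57 ± 0.167 against wild type (adjusted p = 0.0568). The call against unrecombined cells was lost without any of 9 single libraries (recombined 2, 3 or 4, any unrecombined, wild type 1 or 3), with adjusted p of 0.0594 to 0.131, and in the paired fit of these groups (0.0603). It was also lost with only the groups compared (0.076), with no filter (0.0637), with limma-voom (0.0542), with the replicate block over all 12 libraries (0.0539) and with the number series as a covariate (0.0531). Against wild type it passed without recombined 1 (0.0247) or wild type 2 (0.0419) and with DESeq2 (0.0197).

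Spen, a corepressor that binds Rbpj, is counted with MINT and Zbtb17 from chromosome 4, position 141000587, so that a neighbouring gene may add to it. It had 127, 123, 191 and 125 CPM in recombined, 87.9, 76, 103 and 86.9 CPM in unrecombined and 93.5, 107, 105 and 105 CPM in wild type libraries. The recombined libraries lay above both other groups, with library 3 far above the other 3. It rose by 0.68 ± 0.164 against unrecombined cells (adjusted p = 0.0266), and had 0.46 ± 0.164 against wild type (adjusted p = 0.118). The call was lost without recombined 3 or unrecombined 1, 2 or 4 (adjusted p 0.0572 to 0.0807) and with only the groups compared (0.0798). Without recombined 3 and 4 neither Rbpj (0.49, adjusted p = 0.353) nor Spen (0.50, 0.172) passed against unrecombined cells. The Mastermind-like coactivators Maml1, Maml2 and Maml3 had log2 differences of 0.35, 0.32 and -0.03 against wild type and 0.36, 0.44 and 0.62 against unrecombined cells, with no call.

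The target genes did not move together. Hes1, a bHLH repressor and a widely used Notch target at chromosome 16, position 30065442, had 46, 38.9, 16.4 and 29.3 CPM in recombined libraries, against 56.3, 46.4, 34 and 40.8 CPM in unrecombined and 53.1, 75.7, 70.9 and 61.5 CPM in wild type libraries. All recombined libraries were below all wild type ones, and the unrecombined libraries overlapped with both. Hes1 fell by 1.00 on the log2 scale (SE 0.272) against wild type (adjusted p = 0.0424), and had -0.44 ± 0.27 against unrecombined cells (adjusted p = 0.425). The call was lost without any single library other than recombined 1 or unrecombined 3, with adjusted p of 0.0504 to 0.112, and with only the groups compared (0.0866). Within series 23 the difference from wild type was -0.65, and within series 24 it was -1.40.

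The other targets gave no call. Hey1, a hairy-related repressor, had 24.8 to 90.6 CPM in recombined, 25.7 to 98.6 in unrecombined and 24.7 to 59.1 in wild type libraries, with 0.30 ± 0.416 against wild type (interval -0.59 to 1.20). Hey2 lay at 0.618 to 3.26, 1.29 to 1.98 and 0.818 to 1.86 CPM in the same groups. Heyl, which in vessels marks mural cells, had 8.72, 3.04, 24.9 and 5.65 CPM in recombined, 7.57, 4.63, 7.44 and 4.45 CPM in unrecombined and 3.3, 2.98, 5.85 and 3.12 CPM in wild type libraries. Its difference against wild type was 1.47 ± 0.543 (adjusted p = 0.136), with the highest value in recombined library 3. Without that library it was 0.61 (adjusted p = 0.507), and it was 0.54 in series 23 and 2.30 in series 24. Nrarp, a feedback inhibitor of Notch, averaged 16.7 ± 4.23, 16.4 ± 8.27 and 9.48 ± 3.81 CPM (SD, n = 4 each) in recombined, unrecombined and wild type libraries, and had 0.82 ± 0.377 against wild type (adjusted p = 0.236).

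Hes6, a Hes family member that antagonises Hes1 in mouse neural cells, was scarce. It had 1.05, 0.147, 0.108 and 0.0824 CPM in recombined, 1.12, 1.39, 0.719 and 1.97 CPM in unrecombined and 1.94, 1.16, 0.96 and 1.79 CPM in wild type libraries. Recombined libraries 2, 3 and 4 lay below every red library, and library 1 overlapped with them. The log2 difference was -2.04 ± 0.833 against wild type (adjusted p = 0.181) and -1.87 ± 0.829 against unrecombined cells (0.251). Without recombined 1 it was -3.65 (adjusted p = 0.0134) and -3.48 (0.0177). Hes5 was below the filter, with 10 counts in recombined libraries together, 9 of them in library 2, and 1 count in each of the other groups.

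**Figure D4:**
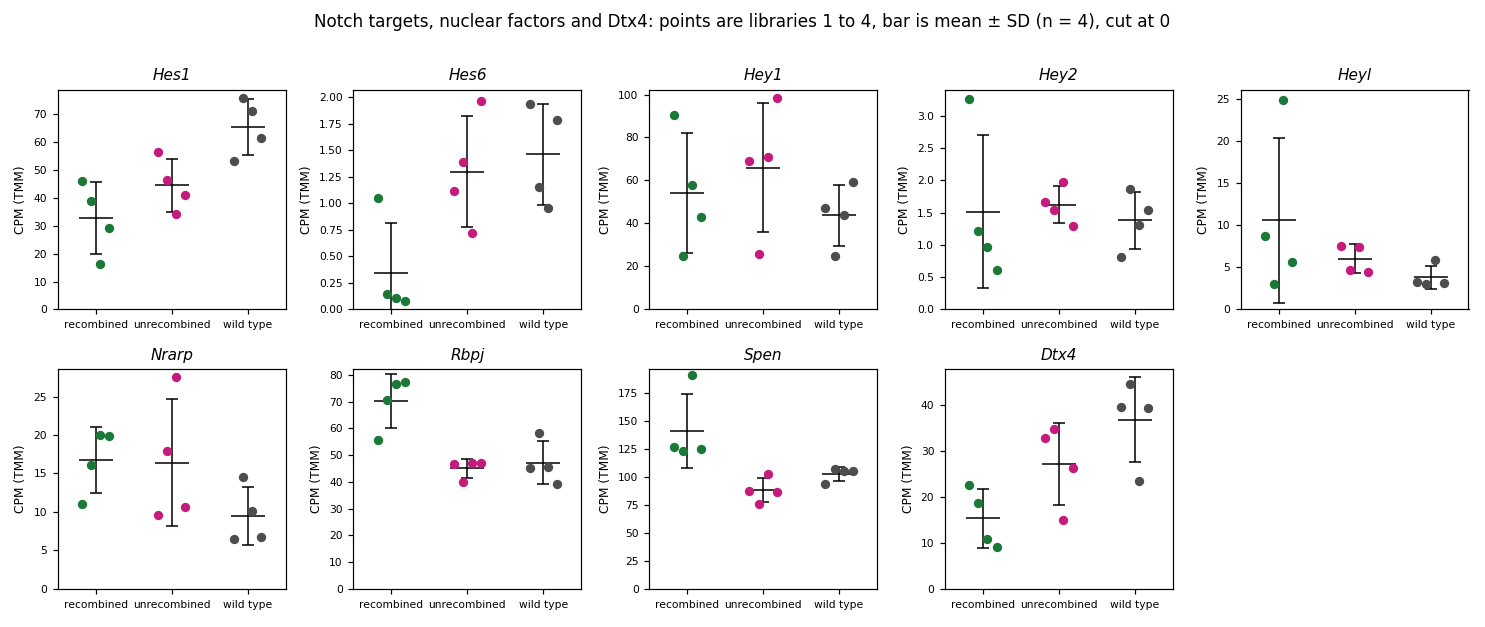
CPM (vertical axes) of 6 targets, Rbpj, Spen and Dtx4 in recombined, unrecombined and wild type cells, with a point per library and the mean ± SD (n = 4 each; bars cut at 0). Hes1 at 16.4 to 46 CPM and Dtx4 at 9.15 to 22.6 in recombined libraries lie below all wild type libraries, Spen at 123 to 191 lies above all others, and Hey1, Hey2 and Nrarp overlap.

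Of the endocytic and ubiquitin regulators, Dtx4 changed. Dtx4, a Deltex ubiquitin ligase at chromosome 19, position 12540825, had 22.6, 18.8, 10.9 and 9.15 CPM in recombined libraries, against 32.9, 34.8, 14.9 and 26.4 CPM in unrecombined and 39.7, 44.7, 23.4 and 39.5 CPM in wild type libraries. Recombined and wild type libraries did not overlap, although recombined 1 came close to wild type 3. It fell by 1.26 on the log2 scale (SE 0.338) against wild type (adjusted p = 0.0405), and had -0.82 ± 0.335 against unrecombined cells (0.202). This call was lost without any of 8 single libraries (recombined 2, 3 or 4, unrecombined 1 or 4, wild type 1, 2 or 4), with adjusted p of 0.0537 to 0.106, and with only the groups compared (0.0607). The difference from wild type was -0.79 in series 23 and -1.95 in series 24. Without recombined 3 and 4, Dtx4 had -0.84 (adjusted p = 0.315) and Hes1 -0.63 (0.225) against wild type.

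Numb and Numbl encode adaptors that inhibit Notch. Numb had 34.1 to 59.8 CPM in recombined, 36.5 to 58 in unrecombined and 37.5 to 64.3 in wild type libraries. Numbl had 2.72, 5.83, 7.27 and 7.3 CPM in recombined, 3.59, 2.34, 4.24 and 2.82 CPM in unrecombined and 1.6, 2.71, 2.75 and 1.9 CPM in wild type libraries. The lowest recombined value lay just inside the wild type range, and its difference of 1.36 ± 0.417 did not pass (adjusted p = 0.0683), although it did without recombined 1 (0.0241) and with DESeq2 (0.0119). Itch, a ubiquitin ligase of Notch, stayed between 140 and 184 CPM in all 12 libraries. Dtx1, Dtx2 and Dtx3, counted for the last with Deltex3, had log2 differences of 0.62, -0.20 and 0.26 against wild type and -0.28, -0.80 and 0.66 against unrecombined cells, with no call.

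Of 36 further pathway genes, 35 were found and 32 tested. In recombined cells 2 rose and 2 fell, both against wild type, where 4.17% of all loci rose and 2.38% fell, and against unrecombined cells, where 3.08% rose and 2.14% fell. The median log2 fold changes of the 32 were -0.01 and 0.06. Adam10, the metalloprotease that makes the first activating cut in Notch, had 205, 181, 126 and 188 CPM in recombined libraries, against 333, 327, 304 and 399 CPM in unrecombined and 387, 573, 388 and 471 CPM in wild type libraries. It was lower in every recombined library than in any red library, with log2 fold changes of -1.38 ± 0.181 on the log2 scale against wild type (adjusted p = 0.00054) and -0.96 ± 0.179 against unrecombined cells (0.00531).

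Neurl2, a Neuralized family gene, averaged 81.1 ± 28.5, 37.8 ± 8.19 and 37.6 ± 4.81 CPM (SD, n = 4 each) in recombined, unrecombined and wild type libraries. It rose by 1.11 ± 0.246 against wild type (adjusted p = 0.0155) and 1.10 ± 0.246 against unrecombined cells (0.017). The second call was lost without unrecombined 3 (0.0588) or 4 (0.0592), in the paired fit (0.0503) and with only the groups compared (0.0523). Recombined library 1 (47 CPM) lay below unrecombined library 2 (48.6 CPM), so these groups overlapped. Mfap5, a microfibril protein reported to bind Jag1 and Notch1, had 0.0597 to 0.476 CPM in recombined, 22.9 to 56.4 in unrecombined and 9.1 to 17.8 in wild type libraries. The log2 fold changes were -5.63 ± 0.508 against wild type and -6.98 ± 0.532 against unrecombined cells (adjusted p = 6.34e-05 and 6.04e-06), beside fibroblast marker sums that were also lowest in recombined libraries, whose part in this was not tested. Without recombined 3 and 4, Neurl2 (adjusted p 0.197 and 0.223) did not pass, nor did Adam10 against unrecombined cells (-0.82, 0.0609), while Adam10 against wild type (-1.25, 0.00839) and Mfap5 did.

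In unrecombined against wild type cells, 0 of 31 members passed by edgeR, DESeq2 or limma-voom, and 0 had an unadjusted p below 0.05. Over all 14039 loci 0 passed (0%) by edgeR, and 541 (3.85%) had an unadjusted p below 0.05. Dll1 differed by 0.20 ± 0.28 on the log2 scale, Jag1 by -0.06 ± 0.31 and Jag2 by -0.19 ± 0.594. The members with the smallest p were Nrarp (0.79 ± 0.377), Maml3 (-0.65 ± 0.316) and Hes1 (-0.56 ± 0.27), each with an adjusted p of 1. Maml3 had 24.3, 17.6, 22.8 and 25.9 CPM in unrecombined libraries, against 29, 49, 35.8 and 28.8 CPM in wild type libraries, without overlap, where 1.55% of all loci were lower without overlap. The median over tested members was -0.06, and 0 of the 32 further pathway genes passed. Among these further genes, Mfap5 (1.35 ± 0.397) and Adam10 (-0.42 ± 0.178) had an unadjusted p below 0.05 by edgeR (0.00444 and 0.034).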

How the data were processed

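Total RNA from FACS-purified mammary epithelium of mice gave 12 libraries. Per the submitters' processing notes, the tools were STAR and HTSeq 0.3.1, with mm9 as the genome build; options, strand setting and annotation are not given in the sources used here. The values the authors deposited are raw read counts per entry: they are whole and their totals vary between libraries. Of 36635 entries, 20114 name a single locus and were analysed; 16521 that name several loci held 0.0617% to 0.101% of a library's counts and were left out. Several symbols share an entry in 3266 of the single-locus entries. Without a stated strand setting, a gene and an overlapping or antisense gene cannot be told apart.

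The main test was edgeR's quasi-likelihood test (version 4.0.16, under R 4.3.3) on these counts, using TMM scaling, robust dispersion estimates, the default filter on low counts (14039 loci kept) and all 12 libraries in a single fit that gives each group its own mean. All p values are two-sided, with Benjamini-Hochberg adjustment over all loci tested and a threshold of 0.05. The SE of each log2 fold change was calculated back from the F statistic of this test, and the intervals from that SE, so both are approximate. CPM are counts scaled by library total and TMM factor. The steps were tested on simulated data. The members and gene lists were chosen with earlier results of these data known. Members past the threshold and all receptors and canonical ligands were given in full, and other pathway genes only where they passed; 1 of these is not reported here.

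Replicate numbers pair recombined with unrecombined libraries: deviations from the group means correlated across loci with r of 0.239, 0.399, 0.244 and 0.298 for same-numbered libraries, against -0.24 to -0.0345 for others, and their labels carry neighbouring library numbers. The main fit did not use this pairing, which enters only through the replicate block among the alternatives. For wild type libraries numbers 2, 3 and 4 had r of 0.185, 0.109 and 0.125 with recombined and 0.312, 0.157 and 0.159 with unrecombined libraries, but number 1 had -0.0314 and 0.00248, so not every pair passed 0.1 and these were not treated as paired. Some different-numbered libraries reached similar values: wild type 1 had r of 0.169 with recombined 4 and 0.337 with unrecombined 4. Alternatives were DESeq2 size factors, DESeq2 1.42.0, limma-voom (limma 3.58.1), no filter, a stricter filter (at least 1 CPM in at least 4 libraries), only the groups compared, a replicate block, the number series of the labels as a covariate, library totals without TMM, and each library left out in turn. Leaving out recombined libraries 3 and 4 together was added after seeing the data. Promoters are RefSeq sequences on GRCm38.p6. Merged exon lengths come from GENCODE M21, a later annotation than the mm9 counts, so levels per kilobase are approximate.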

Additional observations from a re-analysis of the deposited data

Results flagged for a closer look

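In 10 cases a single library lay far from the other 3 of its group, by Dixon's test of the gap over the range (critical value 0.829 for 4 libraries). With 98 groups of a member tested, chance alone flags about 1 in 20 groups. Dll1 had 17 CPM in unrecombined library 2, against 8.52 to 8.69 in the others of that group. Rbpj had 39.8 CPM in the same library, against 46.8 to 47. Notch3 had 36.2 CPM in unrecombined library 1, against 34.6 to 34.8, and Notch4 had 0.108 CPM in unrecombined library 3, against 1.46 to 1.7. In recombined cells Spen had 191 CPM in library 3, against 123 to 127. Hes6 had 1.05 CPM in recombined library 1, against 0.0824 to 0.147, and Dll3 had 0.843 CPM in recombined library 2, with 0 in the other 3. In wild type cells Psen2 had 10.8 CPM in library 2, against 3.68 to 4.84. Maml1 had 16.4 CPM in wild type library 1, against 22.4 to 23.5, and Heyl had 5.85 CPM in wild type library 3, against 2.98 to 3.3.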

How the results depend on the processing

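Dll1 kept its calls in all 22 settings of both recombined comparisons, and Jag1 and Jag2 in all but 1, recombined 3 and 4 left out together. No member that passed changed sign in any setting of its comparison. Members that did not pass could. For example, without recombined 3 and 4, Dtx1 had -1.49, Lfng -0.09, Dtx3 -0.56 and Notch4 0.08 on the log2 scale against wild type, and Maml3 -0.07 and Nrarp -0.27 against unrecombined cells. With single libraries left out, 3 to 5 members were higher and 0 to 4 lower against wild type, and 3 to 5 higher and 0 to 1 lower against unrecombined cells. DESeq2 called 5 members higher against wild type. With only the groups compared 0 members were lower against wild type, or 1 with the replicate block, and 3 were higher against unrecombined cells. Without recombined 3 and 4, 1 member was higher in each comparison and 0 lower against wild type. The cause was not tested.

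Over all loci, with single libraries left out, 319 to 762 were higher and 183 to 455 lower against wild type, and 247 to 622 higher and 202 to 422 lower against unrecombined cells, and 0 in unrecombined against wild type cells. DESeq2 called 958 higher and 659 lower against wild type, 782 and 567 against unrecombined cells, and 72 and 6 in unrecombined against wild type cells, where limma-voom called 17 and 1. With only the groups compared, 175 were lower against wild type, and 7 higher and 1 lower in unrecombined against wild type cells. The replicate block with only the groups compared gave 204 lower against wild type, and 17 and 1 in unrecombined against wild type cells; over all 12 libraries it gave 1 higher there. Without recombined 3 and 4 there were 128 and 120 against wild type and 100 and 182 against unrecombined cells. Of the members' calls, the paired fit changed those of Rbpj against unrecombined cells and Hes1 against wild type (adjusted p = 0.0852), where not every number paired, and no other member call in those comparisons. Library totals without TMM moved 0 of 108 group means by more than their SD. Members under about 1 CPM (Notch4, Dll4, Dtx1) had standard errors near 1 on the log2 scale, so that large changes were not detectable.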
